A study of Mus musculus with 4 samples.

Results

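Gata2, Tal1, Lyl1, Lmo2, Erg and Fli1 encode 6 of the transcription factors known together as the stem cell heptad, and the open chromatin around these genes was described here in sorted blood stem cells with and without Cpt1a. Members were chosen by position only: every ATAC-Seq peak that overlapped a gene body or the 25 kb on either side of it was taken, and peaks of the 4 libraries that shared at least 1 bp were merged into regions. This gave 293 of the 337776 regions of the genome, of which 160 of 137553 had a peak in at least 2 libraries and 89 of 80271 had a peak in all 4.

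ATAC-Seq inserts adapters into accessible DNA with the Tn5 transposase, so that stretches rich in insertions, called peaks, mark open chromatin. There were 2 libraries from control mice (Cpt1a fl/fl, labelled WT) and 2 from KO mice, in which Vav1-Cre deletes the floxed Cpt1a gene throughout the blood system. The mice were adult and kept on a C57BL/6 background, and cells were sorted from bone marrow and cryopreserved before tagmentation. The labels call the cells ltHSC and the study calls them HSPCs, and neither says whether a library came from 1 animal or from a pool. Cpt1a is the mitochondrial enzyme that passes long-chain fatty acids into beta-oxidation, and Vav1-Cre is active in all blood lineages, so the deletion was not limited to stem cells.

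Heptad factors bind DNA together at enhancers of blood stem and progenitor cells. GATA2 is a zinc finger factor that recognizes GATA sites, TAL1 and LYL1 are related basic helix-loop-helix factors that bind E-boxes as dimers with E proteins, LMO2 is a bridging protein without DNA binding of its own, and ERG and FLI1 are ETS factors. RUNX1 is the remaining member and is described with the cofactors near the end. Several of the genes are known to be switched on through enhancers that lie far from their start sites and are themselves bound by heptad proteins, which is why regions far from promoters are given the same room as promoters.

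The promoters are shown first, since the regions differed in how they sat on them. Each line gives the 250 bases before an annotated start site, 5′ to 3′ on the strand of the gene, from RefSeq (GRCm38.p6, the same assembly as mm10). The table held 8 start sites for Gata2, Tal1, Lyl1 and Erg, and Lmo2 and Fli1 are named only. Capitals mark matches, on either strand, to the GATA site AGATAA, to the E-box sequences CAGATG or, as the palindrome, CAGCTG, to the ETS sites CCGGAA or, in its other form, AGGAAG, or to the RUNX site TGTGGT, and no match overlapped another. Shown are the first, distal Gata2 start and the Lyl1 start, which lay inside a region in every library, the first Tal1 start, whose region began at the start site and ran into the gene, and the second and the third start of Erg, of which only the latter was open.

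The first start of Gata2, chr6:88193641-88193890, plus strand: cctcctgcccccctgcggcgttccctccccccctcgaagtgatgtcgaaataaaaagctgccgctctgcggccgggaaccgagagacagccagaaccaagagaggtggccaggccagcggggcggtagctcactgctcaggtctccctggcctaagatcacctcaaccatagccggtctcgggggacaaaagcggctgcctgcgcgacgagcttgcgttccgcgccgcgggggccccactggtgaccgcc
The first start of Tal1, chr4:115056176-115056425, plus strand: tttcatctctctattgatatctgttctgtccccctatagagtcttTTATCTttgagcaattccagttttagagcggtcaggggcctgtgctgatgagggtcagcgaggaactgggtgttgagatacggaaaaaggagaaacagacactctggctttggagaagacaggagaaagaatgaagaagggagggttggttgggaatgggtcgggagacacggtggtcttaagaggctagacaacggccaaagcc
The start of Lyl1, chr8:84701207-84701456, plus strand: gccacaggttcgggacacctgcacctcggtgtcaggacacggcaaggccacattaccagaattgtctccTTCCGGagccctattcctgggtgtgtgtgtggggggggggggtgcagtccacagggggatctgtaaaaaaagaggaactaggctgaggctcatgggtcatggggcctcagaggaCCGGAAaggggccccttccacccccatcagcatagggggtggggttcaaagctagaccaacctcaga
The second start of Erg, chr16:95530366-95530615, minus strand: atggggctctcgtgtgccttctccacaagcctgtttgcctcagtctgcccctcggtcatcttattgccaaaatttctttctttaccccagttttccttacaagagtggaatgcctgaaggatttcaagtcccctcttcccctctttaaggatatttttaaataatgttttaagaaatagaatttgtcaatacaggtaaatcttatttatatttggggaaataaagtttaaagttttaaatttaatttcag
The third start of Erg, chr16:95459349-95459598, minus strand: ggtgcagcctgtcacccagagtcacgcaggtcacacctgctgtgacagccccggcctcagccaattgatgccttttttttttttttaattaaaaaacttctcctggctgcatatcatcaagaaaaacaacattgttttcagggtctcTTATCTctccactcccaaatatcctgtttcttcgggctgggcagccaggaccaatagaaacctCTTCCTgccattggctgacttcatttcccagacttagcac

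AGATAA was present in 2 of the 8 heptad promoters, 205 bases before the first Tal1 start and 103 bases before the third Erg start, and in 10.0% of all 32619 promoters of this length. The Lyl1 promoter held CCGGAA 2 times, 181 and 67 bases before the start, and 12.1% of all promoters held it at least once. AGGAAG was found 40 bases before the third Erg start and in 29.6% of all promoters. The E-box sequence CAGATG matched 0 of the 8 windows, against 14.4% of all promoters, the palindrome CAGCTG 0 against 13.1%, and the RUNX site 0 against 13.9%, which says only that these letters are not in these windows.

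The promoters also differed in base composition. The distal and the second Gata2 promoters had a GC content of 67.2% and 74%, above the median of 52.4% over all promoters, with 22 and 24 CpG dinucleotides against a median of 6. The Erg promoters were lower, at 48.8%, 36.0% and 47.2% from the first start to the third. The 36.0% of the second Erg promoter, which had no region in any library, placed it at the 6.0 percentile of all promoters.

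The lists score each summit by a fold, its signal divided by the local background of that library. The strength of a region in a library was the fold of its strongest summit there, and its percentile was its rank among all regions of the same library, with 100 the strongest. The 4 lists held between 240940 and 277594 summits and no read counts, so depth was unknown. Covered sequence was 52.88 and 48.89 Mb in the controls and 42.58 and 44.35 Mb in KO. The targeted gene, Cpt1a, had a region over its start site in every library, with folds of 7.96 and 7.5 in the controls and 8.0 and 9.07 in KO, so the peaks do not show the deletion, whose exons were not examined. Of 5 stem and progenitor markers with an annotated start site (Kit, Procr, Mecom, Hlf and Slamf1), 5 had a region there in all 4 libraries, at the 62.5 to 96.3 percentile. Of 3 erythroid markers, 2 (Klf1 and Epor) had one in all 4, at the 93.7 to 99.1 percentile. Of 3 T cell markers with an annotated start site, 0 had one in all 4. Cd3e and Lck had one in 3 libraries, at the 19.3 to 60.6 percentile, and Cd8a in 0. Of 2 myeloid markers, 1 (Mpo) had one in all 4, and Elane had one in 3. Markers of other cells were open as well: 3 of 3 megakaryocyte markers at the 74.0 to 91.4 percentile, 2 of 2 B cell markers (Cd79a and Pax5) at 27.3 to 67.1, 2 of 2 endothelial markers (Kdr and Tek) at 35.7 to 88.5 and, of 2 genes from outside blood, Neurod1 at 51.5 to 74.8 had regions in all 4 libraries. A peak list does not tell fewer cells with an open region from a smaller opening per cell.

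Around these genes, regions held by every library were dense. Per 100 kb of gene and flanks, Lyl1 had 22.5 of them, Gata2 15.8, Tal1 15.3, Lmo2 13.5, Erg 10.5 and Fli1 10.5, against a median of 5.9 over the windows of 21627 protein-coding genes. Lyl1 lay at the 99.0 percentile of that ranking, Gata2 at 93.0, Tal1 at 92.0, Lmo2 at 87.3, Fli1 at 75.4 and Erg at 75.2. Lyl1 is a gene of 3.3 kb whose window also holds its neighbours, so its count is not its own alone. By number and not density, the 29 regions of Erg, a gene of 227.4 kb, placed it at the 99.8 percentile and the 18 of Fli1, a gene of 121.2 kb, at 98.0.

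**Figure D1:**
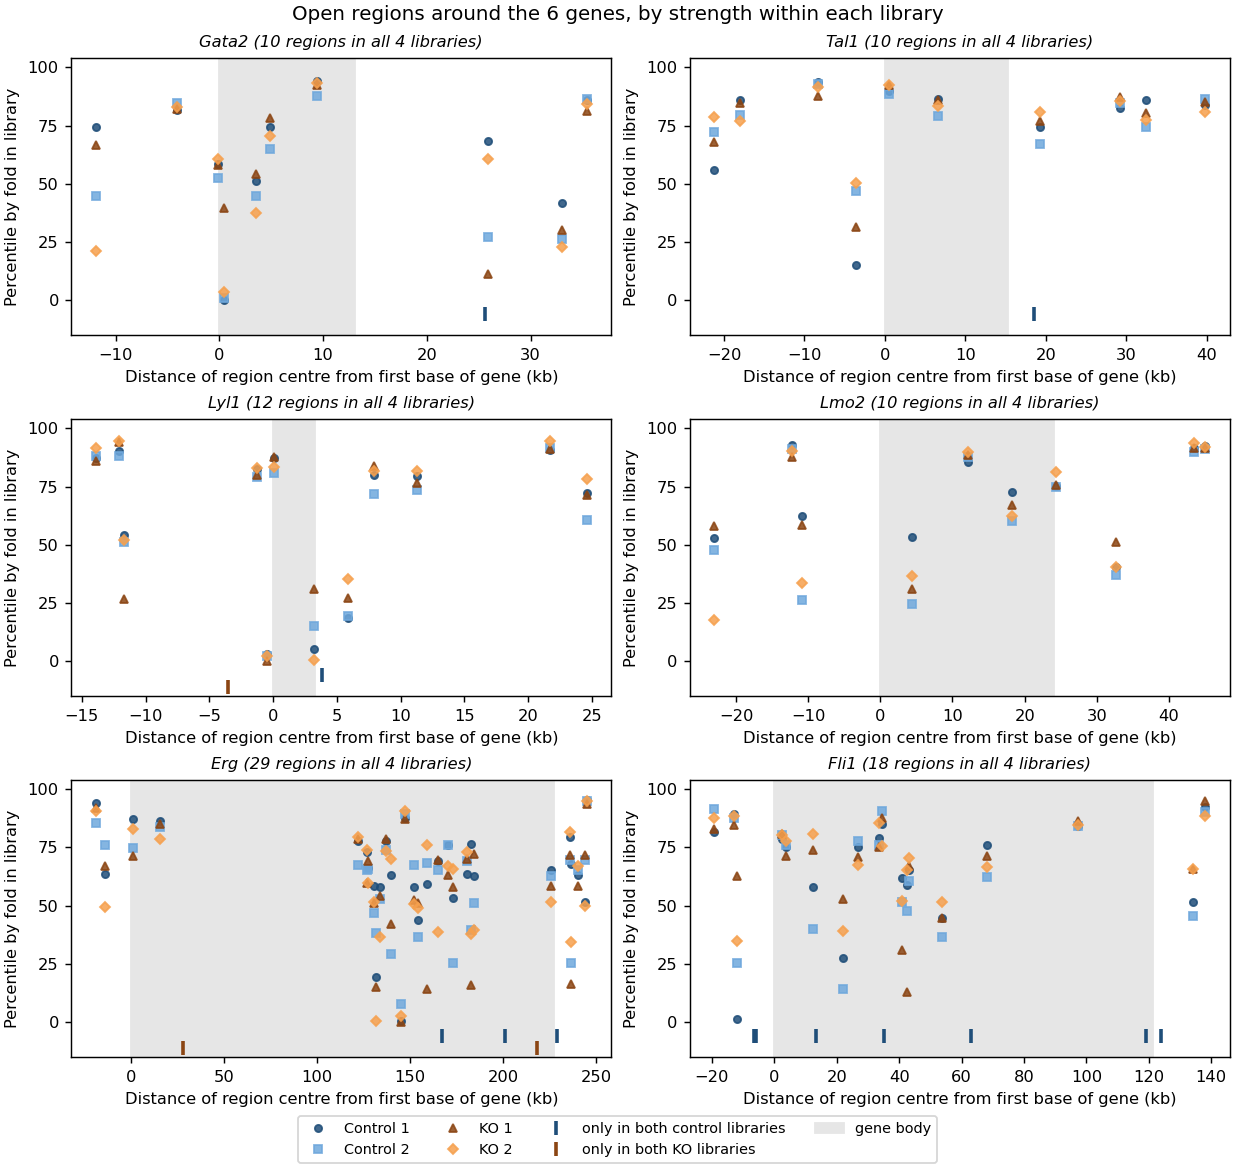
Percentile of each region by the authors' fold within its library (vertical axis) against the distance of its centre from the first base of the gene in kb (horizontal axis, positive in the direction of transcription), for the 89 regions held by all 4 libraries. Each library is a symbol, the gene body is grey, and ticks at the foot mark the 13 regions only in both control libraries and the 3 only in both KO libraries. The region of highest median percentile, 94.8, lies 245.0 kb from the first base of Erg.

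At Gata2 (chromosome 6, 88193891 to 88207032), the strongest region was not a promoter. It lay inside the gene (88202884 to 88203704), its centre 9.4 kb from the first base, at the known distance of the +9.5 intronic enhancer, an element required for blood stem cells to form in the embryo. Its fold was 13.49 and 10.18 in the controls and 12.25 and 11.88 in KO, so the KO values lay between the control values. The strongest summits of the 4 libraries fell within 20 bp of each other.

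The annotated start sites of Gata2 were open and weaker. The region over the distal start (88193407 to 88194082) had folds of 3.74 and 3.76 in the controls and 3.65 and 3.87 in KO. The region over the second start (88198559 to 88199040) had 5.64 and 4.77 against 6.26 and 4.74. Neither separated the genotypes as deposited. With log2 folds centred on the median of each library, the distal start had -0.71 and -0.72 in the controls and -0.68 and -0.49 in KO. Both KO values were then higher there, and the second start still overlapped. The percentile of the second start was 69.7 ± 6.85 (SD, n = 2) in control and 74.2 ± 5.46 in KO (exact permutation test, two-sided, p = 0.667, where 0.33 is the smallest p that 2 against 2 libraries allow). A further, narrow region 0.4 kb into the gene (88194213 to 88194375) had folds of 1.74 and 1.99 in the controls and 2.94 and 2.30 in KO.

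Tal1 (chromosome 4, 115056426 to 115071755) had strong regions at its start and on both sides. Over the first start (115056405 to 115057540) the fold was 10.67 and 10.69 in the controls and 12.12 and 11.29 in KO, and the KO libraries were both higher. The percentile was 89.4 ± 0.81 (SD, n = 2) in control and 92.4 ± 0.013 in KO, a difference of 3.00 points that gave the smallest possible exact permutation p of 0.33. Ranked by −log10 p the difference was 1.19 points, and with lists of equal length it was 4.33 points. Of the 250 bases printed above, at most 21 were covered by a peak of any library, because the region starts next to the start site and extends into the gene. The second start, 271 bp beyond the end of the region, had no region of all 4 libraries of its own.

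The leading region of Tal1 outside the promoter lay 8.3 kb upstream (115047644 to 115048628), with folds of 13.09 and 12.95 in the controls and 9.47 and 10.82 in KO. Here both control libraries were higher, and the summits agreed within 12 bp. At the distance of the +19 stem cell enhancer, a region centred 19.3 kb downstream of the first base (115075223 to 115076181) had folds of 5.59 and 5.07 in control and 6.01 and 6.54 in KO. At the distance of the +40 enhancer, which is known for its activity in erythroid cells, a region at 39.8 kb (115095531 to 115096867) had 8.07 and 9.64 against 8.34 and 6.59. The summits of the latter agreed within 10 bp, and those of the +19 region within 92 bp. The genes Stil and Pdzk1ip1 flank Tal1, and 2 of its 10 regions lay inside Stil and 1 inside Pdzk1ip1.

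At Lyl1 (chromosome 8, 84701423 to 84704716) the start site region (84701190 to 84701891) covered all 250 printed bases in every library. Its fold was 9.30 and 7.77 in the controls and 9.34 and 7.28 in KO, and replicates differed by more than the genotypes did. Its percentile was 84.1 ± 4.47 (SD, n = 2) in control and 85.4 ± 3.05 in KO (exact permutation p = 0.667). The strongest region outside the promoter was centred 12.1 kb upstream (84689031 to 84689553), inside the neighbouring gene Trmt1. It had folds of 10.82 and 10.24 in the controls and 13.40 and 13.19 in KO, so the genotypes were separate while replicates were close.

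Lmo2 (chromosome 2, 103957903 to 103981878) and Fli1 (chromosome 9, 32422204 to 32543432) shared a pattern: no region of all 4 libraries lay within 1 kb of the first annotated base, and a strong region lay inside the gene. For Lmo2, a peak of KO 2 alone (103957708 to 103957780, fold 3.29) was nearest to the first base. The next region (103958161 to 103958535) had folds of 2.29 in control 1, 3.16 in KO 1 and 2.26 in KO 2, with no peak in control 2. The strong region was 12.2 kb into the gene (103969335 to 103970892), with 8.58 and 10.14 in the controls and 9.88 and 9.61 in KO. Over all start sites of the table, 54.0% of 32619 had a region of all 4 libraries within 1 kb. For protein-coding genes it was 66.5% of 21044. The table held no start site for Lmo2 or Fli1, so only the first annotated base of each was examined. Whether the strong regions inside these genes lie at other start sites was not tested. The orientation of Lmo2 and Fli1 was taken from general knowledge of these genes, since the tables used give no strand for them.

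The leading regions of Lmo2 outside the gene were among the strongest of the set. The 2 highest lay 43.4 and 45.0 kb from the first base, downstream of the gene. The region at 45.0 kb (104002645 to 104003241) had folds of 12.12 and 11.78 in control and 11.51 and 10.98 in KO, and that at 43.4 kb (104001017 to 104001550) had 11.51 and 11.07 against 11.43 and 12.27. A region 12.3 kb upstream (103944710 to 103946451) had 12.65 and 11.95 in the controls and 9.39 and 9.89 in KO, with both controls higher.

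**Figure D2:**
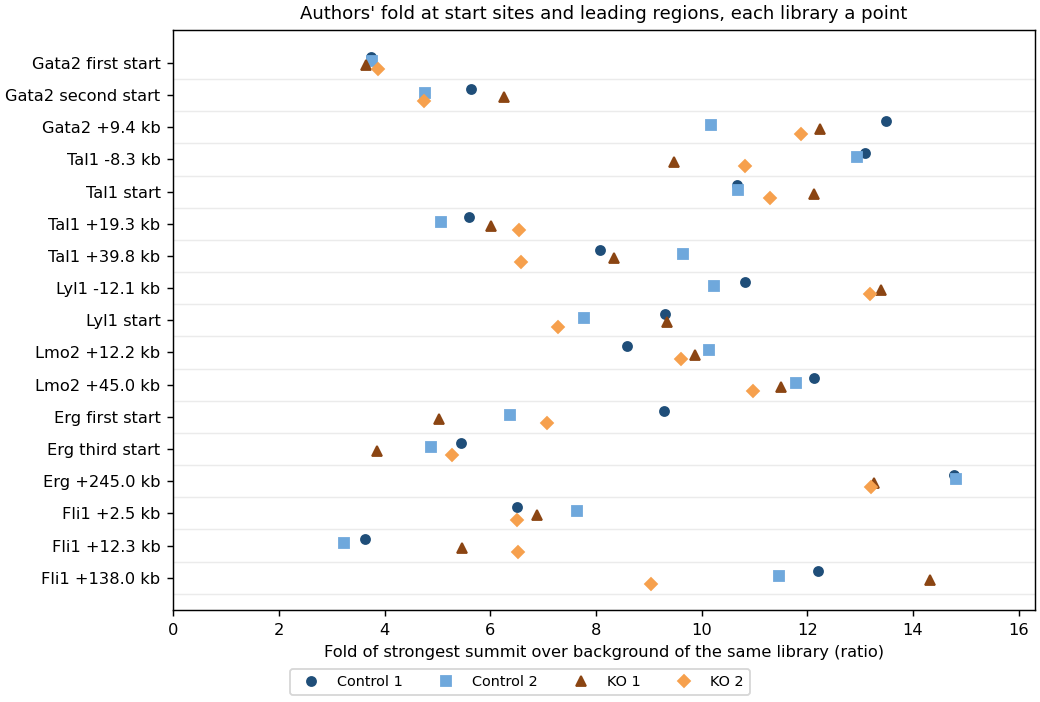
The authors' fold of the strongest summit (ratio, horizontal axis) at start sites and leading regions of the 6 genes, each library a point, with distances in kb from the first base of the gene. At Gata2 +9.4 kb the KO values lie between the control values, at Lyl1 -12.1 kb and Fli1 +12.3 kb both KO libraries are higher, and at Tal1 -8.3 kb both control libraries are higher. At Erg +245.0 kb both control folds are higher as deposited, but the genotypes overlap once each library is centred on its median.

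In Fli1, the region of all 4 libraries nearest to the first base (32540136 to 32541762, centred 2.5 kb in) had folds of 6.51 and 7.65 in control and 6.89 and 6.51 in KO. A weaker region lay nearer, centred 1.1 kb into the gene (32542186 to 32542467), with folds of 2.23 and 2.17 in the controls, 1.81 in KO 1 and no peak in KO 2. The stronger, merged region carried a pair of main summits in every library. The summit that lay 3142 to 3228 bp into the gene had folds of 6.51 and 7.65 in the controls and 5.19 and 5.61 in KO. The summit nearer the first base, 2074 to 2080 bp into the gene, had 4.24 and 6.05 in the controls and 6.89 and 6.51 in KO. The ratio of the nearer to the farther summit was thus 0.65 and 0.79 in control and 1.33 and 1.16 in KO, and the strongest summit changed place between the genotypes. It was noticed after the values were seen. Of the 89 regions, 1 (1.12%) had its strongest summits within 50 bp in each genotype and more than 200 bp apart between genotypes, and of all 80271 regions 0.547% did.

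The top region of Fli1 outside its promoter lay 138.0 kb from the first base, downstream of the gene (32405067 to 32405748), with folds of 12.21 and 11.46 in the controls and 14.32 and 9.04 in KO. Its KO values enclosed the control values. At the nominal +12 distance of a known Fli1 enhancer, a narrow region inside the gene (32531074 to 32531220) had folds of 3.63 and 3.24 in the controls and 5.47 and 6.52 in KO. Its percentile was 57.8 and 39.8 in control and 73.8 and 80.6 in KO, and the limma fit over all regions did not call it (adjusted p = 0.481).

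Other nominal distances matched nothing firm. No region lay within 1 kb of 15 kb upstream of Fli1. The window ended 25 kb upstream of Lmo2, so the enhancer known at about that distance was not examined. At 1 kb into Lmo2 there were 2 regions and at 85 kb into Erg there was 1, and 0 of them were held by all 4 libraries. Published distances can be counted from another start than the first annotated base, and the orientation caveat above applies, so these results say nothing about those enhancers.

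Erg (chromosome 16, 95359169 to 95586600) had the longest window and the most uneven one. The first start had a region 384 bp into the gene (95585209 to 95586209), with folds of 9.29 and 6.37 in the controls and 5.03 and 7.07 in KO, so the range within each genotype was wide. Its percentile was 81.0 ± 8.82 (SD, n = 2) in control and 77.1 ± 7.97 in KO (exact permutation p = 0.667). No peak of any library lay within 1 kb of the second start, and 32.2% of all start sites shared that state. The third start was covered in full in every library by a region (95459313 to 95459765) with folds of 5.45 and 4.88 in control and 3.86 and 5.27 in KO.

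The second start sat in a stretch of 105.7 kb, between regions centred 15.7 and 121.8 kb into the gene, without a region of all 4 libraries. The longest such stretch was 36.0 kb at Fli1 and between 10.0 and 16.0 kb at the other 4 genes. The Erg stretch held 31 regions, of which 28 had a peak in 1 library, 3 in 2 libraries and 0 in 3, with folds of 2.27 to 3.96. Control 1 had 7 of them, control 2 had 3, KO 1 had 11 and KO 2 had 13. A region of 2 libraries counts for both. Over the genome, control 1 held 26.9% of the regions of 1 library, control 2 17.9%, KO 1 27.3% and KO 2 27.9%. Those shares leave out regions of 2 libraries, so the sets are not alike. The order of the libraries differed in the longest stretch of Fli1, where they had 4, 8, 4 and 9 of 20 regions. In that of Gata2 they had 3, 3, 2 and 0 of 6. The regions of all 4 libraries were grouped instead around the third start and in the rest of the gene beyond it. The region of highest median percentile among the 89, 94.8, lay downstream of Erg, 245.0 kb from its first base (95341301 to 95341968), with folds of 14.77 and 14.82 in the controls and 13.26 and 13.20 in KO and summits within 10 bp.

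**Figure D3:**
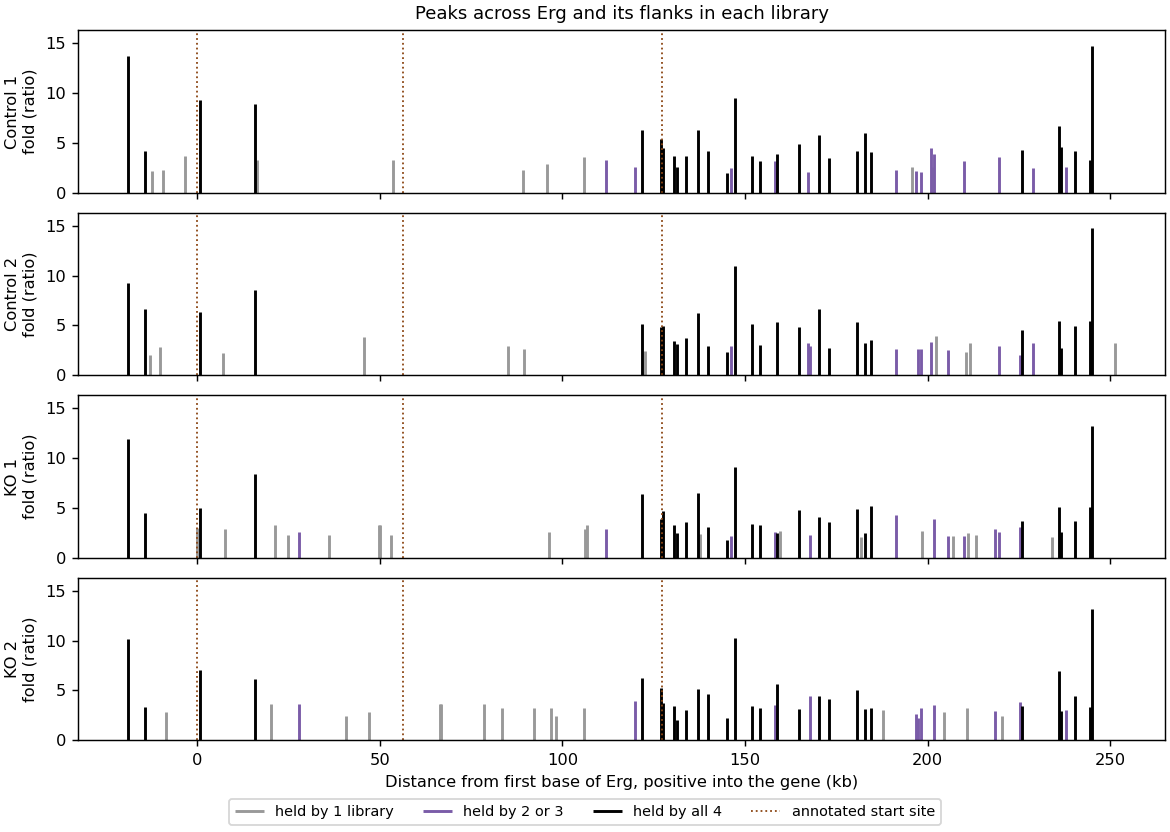
Fold of the strongest summit (ratio, vertical axis) of each region across Erg and its flanks in the 4 libraries, against the distance from the first base in kb. Black lines are regions held by all 4 libraries, purple by 2 or 3 and grey by 1, and dotted lines are the 3 annotated start sites. The 105.7 kb around the second start hold weak lines, of fold 3.96 at most, that differ from library to library.

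The deposited lists were then compared by presence. Of the 160 heptad regions held by 2 or more libraries, 89 (55.6%) were in all 4, and over the genome 58.4% were. Regions in both control libraries and neither KO library numbered 13 (8.12%), where the share over the genome was 6.05%. Regions in both KO libraries and neither control library numbered 3 (1.88%), where it was 3.47%. These shares are a description, and the small counts lie near the background.

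The 13 and 3 regions were weak. In the 13 regions only in control the highest fold of the libraries had a median of 3.09 and reached 4.50, and in the 3 only in KO it had a median of 2.98 and reached 3.67, against a median of 6.11 in the 89 regions of all 4 libraries. The lists were also limited to the 100000 summits of highest −log10 p in each library, and regions were merged and counted anew. This gave 0 heptad regions only in control, against 2.75% over the genome, and 2 only in KO (2.9%, against 3.11%). Regions of such a recount need not be among the 13 and 3. None of the 16 lay within 1 kb of a start site used here. For Fli1, which held 7 of them, that was the first annotated base only, so other start sites of this gene were not examined.

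By gene, Fli1 had 7 of the 13 regions only in control among its 44 regions of at least 2 libraries (15.9%, against 6.05% over the genome) and 0 only in KO. They lay 123.8, 119.0, 63.0, 35.0 and 13.2 kb into or past the gene and 5.9 and 6.6 kb upstream of it. Their folds were 1.78 to 3.25 in control 1 and 2.33 to 3.85 in control 2. Counted anew, Fli1 had 0 regions only in control with the 100000 strongest summits and 1 with summits of −log10 q of at least 5. Leaving 1 library out adds to this count by construction. Without a control library, regions seen in the remaining control alone are added. Without a KO library, regions of both controls are added whose only KO peak was in the library left out. The count was then 20 without control 1, 16 without control 2, 13 without KO 1 and 11 without KO 2. Shares over the genome for these settings are given in the closing section. Erg had 3 regions only in control, at 229.0, 201.0 and 167.2 kb, and 2 only in KO, at 218.5 and 27.9 kb. Of these the region at 201.0 kb (95385363 to 95385784) was strongest, with folds of 4.50 and 3.39 in the controls. Lyl1 had 1 in each direction, 3.8 kb downstream of its first base in control and 3.5 kb upstream in KO. Gata2 had 1 only in control, at 25.6 kb, Tal1 had 1 only in control at 18.5 kb, next to the +19 region, and Lmo2 had 0 in either direction.

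KO 2, the library with the shortest list, was most often the library that lacked a peak. Of the 31 heptad regions with a peak in 3 libraries, 15 (48.4%) lacked it in KO 2, 7 in KO 1, 6 in control 2 and 3 in control 1, and over the genome KO 2 was the missing library in 41.2%. It had 240940 summits, and 35.1% of those used reached a −log10 q of at least 5, against 40.5% to 46.8% in the other libraries. With lists of equal length and regions counted anew, 9 were in control alone (6.34%, against 4.75% over the genome) and 6 in KO alone (4.23%, against 3.9%).

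**Figure D4:**
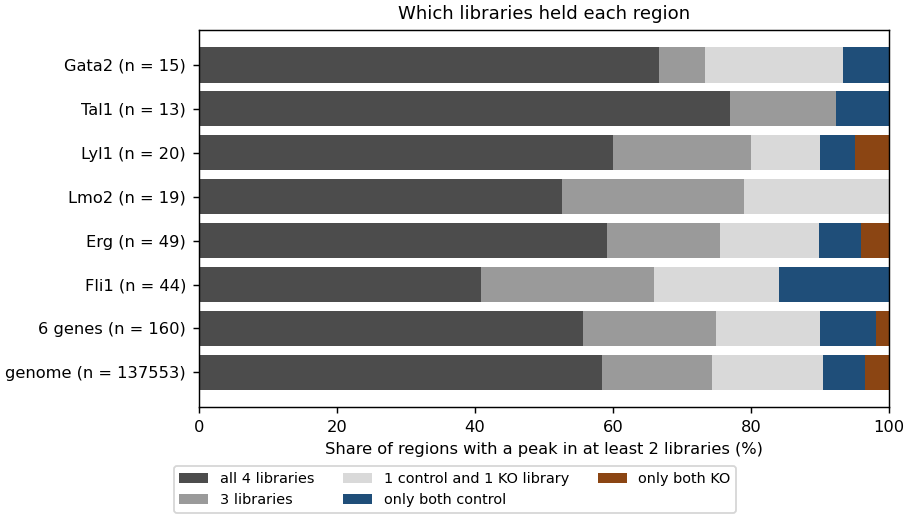
Share of regions (horizontal axis, %) by the libraries that held them, for regions that 2 or more libraries held, in each of the 6 genes, in the 6 together and over the genome. Fli1 shows the widest share only in both control libraries, 15.9%, and Lmo2 shows none in either genotype.

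The same followed for totals over the 6 windows. Control 1 and control 2 had 108.1 and 119.6 of every 100000 summits there, and KO 1 and KO 2 had 101.8 and 103.8 (113.9 ± 8.13 and 102.8 ± 1.41, SD, n = 2 each, exact permutation p = 0.33, the smallest possible). Covered sequence in the windows was 55.9 and 55.6 kb in the controls and 44.3 and 46.0 kb in KO. As a share of all covered sequence this was 0.106% and 0.114% against 0.104% and 0.104%, and the lists as a whole also covered less sequence in KO. Both measures were higher in each control library than in either KO library.

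The median percentile of the 89 regions was 74.4 and 67.4 in the controls and 71.3 and 72.8 in KO (70.9 ± 4.95 and 72.1 ± 1.06, SD, n = 2 each, exact permutation p = 1.000). For all regions held by the 4 libraries it was 76.6 and 73.6 against 76.1 and 75.3. The KO medians lay between those of the controls. By gene, Tal1 and Lyl1 regions were highest (79.2 to 84.9 and 72.6 to 81.7 over the libraries, with Lyl1 above Tal1 in KO 2), and those of Erg and Gata2 lowest (63.3 to 65.7 and 48.8 to 71.4).

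Strength was compared region by region with limma on the log2 fold, centred on the median of each library, over all 80271 regions held by the 4 libraries. With Benjamini-Hochberg adjustment over all of them, 1 region of the genome passed 0.05 (0.00125%) and 0 of the 89 heptad regions did. The lowest adjusted p among the 89 was 0.481. At an unadjusted p under 0.05, 4 heptad regions (4.49%) were higher in KO and 0 higher in control, and over the genome 5.06% were higher in KO and 2.98% higher in control. This split depended on the scale: with strength taken by −log10 p, 4 heptad regions were higher in KO and 3 higher in control. With 1 library left out, 2 or 3 were higher in KO and 1 or 2 higher in control. The other fits tried also gave 0 heptad calls.

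The estimates were small with wide intervals. The log2 difference, KO minus control, had a median of 0.07 over the 89 regions, with quartiles of -0.11 and 0.19, and a median of 0.05 over all regions. The sign of the heptad median turned with the scale, to -0.07 with strength by −log10 p, where the median over all regions was 0, and to -0.06 without centring, where it was -0.08. The median SE of a heptad region was 0.27, and replicates of 1 genotype differed by a median of 0.18 in control and 0.24 in KO on the same scale. KO exceeded control in 52 of the 89 regions and was below it in 37. The libraries of the genotypes did not overlap in 27 regions, with KO higher in 21 (23.6%) and control higher in 6 (6.74%), and over the genome those shares were 23.5% and 15.4%. A p that misses the threshold does not show that the genotypes had equal values: for the Gata2 +9.4 kb region the difference was 0.17 with a 95% interval of -0.21 to 0.54, and for the Tal1 start it was 0.25 with an interval of -0.11 to 0.61.

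**Figure D5:**
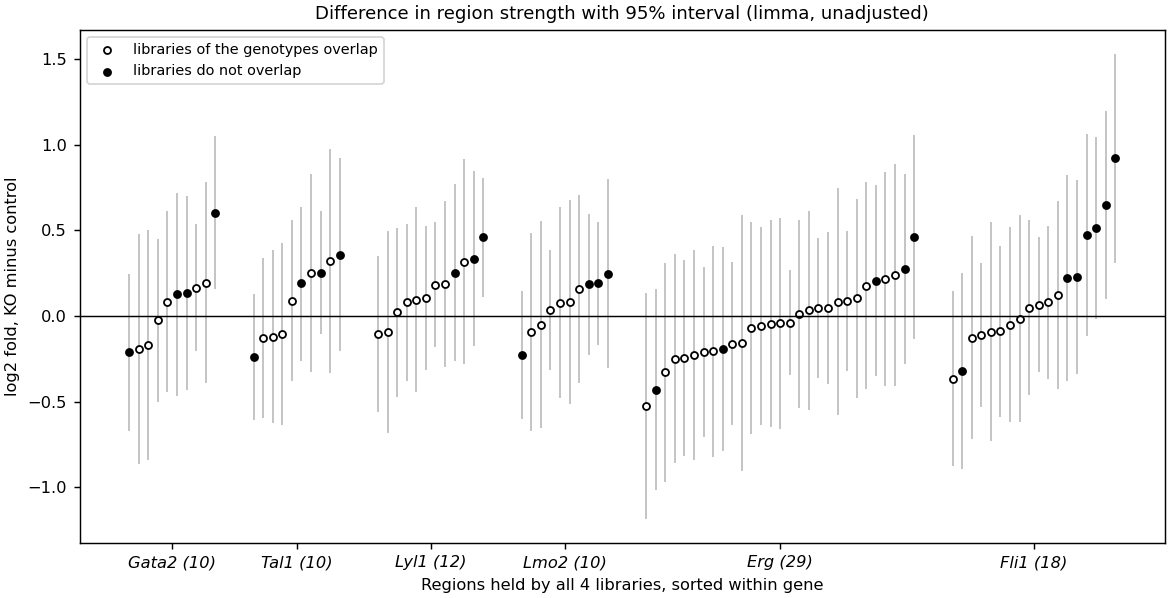
Log2 fold of each of the 89 regions, KO minus control, with 95% intervals from limma without adjustment, sorted within gene. Filled points are regions where the centred values of the 2 control and 2 KO libraries do not overlap (27) and open points are the others. The 4 intervals that leave out 0 belong to Gata2, Lyl1 and Fli1, and none of the 89 passed the adjusted threshold.

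The 4 regions with the lowest p were the Fli1 region at 12.3 kb (0.92 ± 0.29 SE, adjusted p = 0.481 by limma), the weak Gata2 region 0.4 kb into the gene (0.60 ± 0.21 SE, adjusted p = 0.507), the Lyl1 region 12.1 kb upstream (0.46 ± 0.17 SE, adjusted p = 0.515) and a Fli1 region 12.1 kb upstream (0.65 ± 0.26 SE, adjusted p = 0.565). The Gata2 region and the upstream Fli1 region were singled out after their values were seen. The latter (32555396 to 32555651) had folds of 2.04 and 2.74 in the controls and 3.94 and 2.95 in KO. All 4 were higher in both KO libraries than in either control library; their median percentiles were 65.8, 2.5, 92.1 and 30.2 in the order given. The lowest p of a region that leaned to control was 0.114, at Erg, 182.9 kb from the first base.

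Peak positions were compared as well. The strongest summits of the 4 libraries lay within 50 bp in 47 of the 89 regions (52.8%) and within 50 bp in 50.2% of all 80271, with medians of 46 and 50 bp. They were more than 200 bp apart in 11 heptad regions (12.4%), against 13.7% of all.

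The partner list named 16 genes for DNA-binding partners and cofactors of the heptad and other stem cell factors, among them Runx1, the E protein genes Tcf3, Tcf4 and Tcf12, and the cofactor genes Ldb1 and Cbfa2t3. Of its 409 regions of at least 2 libraries, 39 (9.54%) belonged to control alone and 13 (3.18%) to KO alone, against 6.05% and 3.47% over the genome. Runx1, the remaining heptad gene, had 9 of its 55 only in control and 5 only in KO. Cbfa2t3 had 4 of 30 and Ldb1 3 of 16 only in control and 0 only in KO. The genes differed: Gata1 had 2 of 7, Tcf4 4 of 39 and Mecom 2 of 44 only in control. Myb had 0 of 20, Hhex 0 of 7 and Tcf3 0 of 8. Of the 226 partner regions held by all 4 libraries, 0 passed an adjusted p of 0.05 in limma, with 8 (3.54%) higher in KO and 6 (2.65%) higher in control at an unadjusted p under 0.05, against 5.06% and 2.98% over the genome. Gata1, the erythroid counterpart of Gata2, had a region at its start site in both controls, at the 9.7 and 32.9 percentile, and in neither KO library, and it was also the only erythroid marker of the 3 with a start site that was not in all 4 libraries.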

How the data were processed

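Peaks were called by the authors on each library separately. The submitters' processing notes name Bowtie2, MACS2 and mm10, and versions and settings are not given in the sources used here. Per the deposited lists, each row is a summit with its fold over background (a ratio) and its −log10 p and −log10 q. The deposited display score and summit offset were not measurements here, except that the offset placed the summit, and in 253 to 492 rows per list it was read as a chromosome position. The lowest −log10 p in each list was 2.0. The study's DiffBind and edgeR test of peaks needs reads, which were not used here, so depth and counting error are unknown. By that test the study reported peaks that rose and peaks that fell in KO. The limma counts given here rest on folds of regions held by all 4 libraries and do not measure that result.

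Merging (19 autosomes and X) used Python 3.11.15 with pandas 2.3.3 and numpy 2.4.6. limma 3.58.1 in R 4.3.3 (trended empirical Bayes, two-sided) was fitted to all regions of the 4 libraries, on log2 of the fold with no pseudocount. On simulated data with the same SD in every region, it recovered 35 of 100 planted log2 changes of 1.0 at the adjusted threshold. Of changes of 3.0 it recovered 100 of 100, and 6 unchanged regions were called. Most changes of 1.0 were thus missed. Exact permutation tests used scipy 1.17.1. Promoter reach was 1 kb. Nothing states that libraries came from separate animals, so p-values measure the spread between libraries only.

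Regions named are promoters, those at nominal enhancer distances, those of a single genotype, those past the adjusted threshold (0), and the strongest outside the promoter of each gene. Other regions named at Lmo2 (12.2 and 43.4 kb into or past the gene and 12.3 kb upstream), at Fli1 (2.5 kb), at Gata2 (0.4 kb), at Fli1 (12.1 kb upstream) and at Erg (182.9 kb) were chosen after their values were seen. Members and lists were chosen with earlier results of these data known.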

Additional observations from a re-analysis of the deposited data

How the results depend on the processing

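No heptad region passed an adjusted p of 0.05 in limma under any alternative (0 in each, including each library left out). Over the genome the count was 1, and it became 0 with quantile normalization, 0 without centring, 44 with a replicate block, 23 without control 1, 19 without control 2, 1 without KO 1 and 0 without KO 2. Deviations of same-numbered libraries correlated at 0.0073 over 80271 regions. That value compares a single control difference with a single KO difference, so it cannot decide whether the numbers pair the samples. The labels do not say, and the replicate block changed no heptad call. The 89 heptad regions of all libraries became 48 with summits of −log10 q of at least 5, 49 with the 100000 strongest summits, 52 when peaks had to cover a share of 0.5 of a region, 55 with a flank of 5 kb, and 94 to 105 with 1 library left out. Each setting counted regions anew, so those of 1 genotype need not be among the 13 and 3. Shares are of regions in at least 2 libraries, or at least 1 where a library was left out, heptad against genome. Only in control there were 13 (8.12% against 6.05%), 5 with −log10 q of at least 5 (6.85% against 7.02%) and 0 with the 100000 strongest summits (against 2.75%). Without control 1 there were 47 (17.2% against 15.8%) and without control 2, 44 (16.4% against 20.6%). Without KO 1 there were 28 (10.8% against 6.11%) and without KO 2, 20 (7.78% against 4.93%). Only in KO there were 3 (1.88% against 3.47%) and 1 with −log10 q of at least 5 (1.37% against 0.807%). Lists of equal length (240881 summits) gave 6 (4.23% against 3.9%), and windows of 200 bp around summits gave 6 (3.87% against 3.89%). Without control 1 there were 8 (2.92% against 3.06%) and without control 2, 6 (2.24% against 2.8%). Without KO 1 there were 43 (16.6% against 21.5%) and without KO 2, 38 (14.8% against 21.2%). With a library left out, its genotype rests on 1 library, which by construction adds regions seen once to those only in that genotype. To those only in the other genotype it adds regions of both its libraries that the library left out alone had shared. The mean promoter percentile of Gata2, Tal1, Lyl1 and Erg differed by 1.22 points, KO minus control, and by -0.47 by −log10 p and -2.44 to 4.75 without 1 library. The difference in the median percentile of heptad regions was 1.13 points, -0.96 by −log10 p and -0.72 to 3.79 without 1 library, so neither had a stable sign. The causes were not tested. Other alternatives for these results kept counts within 1.5 times or moved values by less than the SD.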
